A study of Oryza sativa with 14 samples.

Results

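Leaves of rice (Oryza sativa, cultivar 'Koshihikari', wild type) grown with chemical fertilizer (CF) were compared between the 2024 and the 2023 season. All CF libraries whose columns the sample labels name were taken, which are 3 from 2024 and 4 from 2023, or 7 of the 14 libraries of the series. The CF 2024 leaves were cut 38 days after transplanting and the CF 2023 leaves 47 days after transplanting, in both years between 9:00 and 10:00 in the morning from vegetative plants. Both groups received the same basal dressing of 56 kg/ha N, 176 kg/ha PO4, 56 kg/ha K, 90 kg/ha Mg and 120 kg/ha SiO2, and seedlings of both years were raised in trays that stood in a fertilized field before transplanting. Seeds were sown on April 5 or 22 for 2024 and on April 17 or 24 for 2023. The other 7 libraries came from leaves grown without chemical fertilizer on ploughed-in hairy vetch, a legume used as green manure (GM), with 60 kg/ha of vetch seed for the 3 GM 2024 leaves and 30 kg/ha for the 4 GM 2023 leaves, sampled on the same days after transplanting as the CF leaves. One leaf was 1 biological replicate. The labels call it the largest leaf in one place and the first fully expanded leaf in another, and they do not say how many plots or fields the leaves came from, so the p-values below measure the spread between leaves.

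Season, days after transplanting, leaf stage and sequencing run (1 deposited table a year, with no run named in the labels) changed together with the year, and their parts in any difference cannot be told apart. In a bulk leaf sample, fewer cells of a type and less RNA per cell cannot be told apart either. Each year is 1 season at 1 sampling day, so neither a time course nor a general difference between seasons is measured.

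A rice leaf in the vegetative phase assembles its photosynthetic machinery, exports sucrose, takes up and reassimilates nitrogen and measures day length. Day length is read through the circadian clock, a loop of morning genes such as OsCCA1 and evening genes such as OsPRR1, and through flowering repressors such as Ghd7, which delay flowering in long days. As leaves grow and age, the balance between wall building, plastid assembly, nutrient storage and defence transcripts shifts.

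The CF 2024 libraries held 14882517 to 23367369 reads counted in genes and the CF 2023 libraries 8161851 to 9549669. The 100 genes with most reads took 38.5 to 39.4% of the reads in CF 2024 leaves and 28.6 to 33.1% in CF 2023 leaves, and the trimmed-mean (TMM) scaling factors were 0.83 to 0.848 in 2024 and 1.08 to 1.19 in 2023. Levels are given below as CPM (reads per 1e6 reads of the TMM-scaled library), a scale that sets the bulk of the genes level between libraries. Scaling by library totals alone moved the median log2 fold change of all genes to -0.49, against -0.04 with TMM. The first principal component, with 65.9% of the variance, separated the years, and the second, with 9.38%, set CF 2023 library 2 (-36.4) apart from the other 6 libraries (-5.1 to 20.3). Of 8 markers of root, meristem, dividing cells and inflorescence, 5 had no read in CF 2024 leaves and 4 none in CF 2023 leaves. The root marker OsLsi2, the meristem marker OSH1 and the inflorescence markers LAX1 and FZP had no read in either year. The inflorescence marker OsMADS1 had 139 reads in CF 2024 and 94 in CF 2023, and OsMADS6 0 and 2. OsCDKB2;1, of dividing cells, had 28 reads in CF 2024 and 15 in CF 2023. OsMADS14, an inflorescence marker kept in the flowering list, had 37 reads in CF 2024 and 310 in CF 2023. Relative to library totals, the 8 genes summed to 19.7 to 26.5 CPM in CF 2024 and 12.3 to 22.2 CPM in CF 2023, of which the silicon channel OsLsi1, a root marker also called higher here, made 17.3 to 22.1 CPM in 2024 and 10 to 19.2 CPM in 2023. Their part in the results was not tested.

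Close to equal numbers of genes were higher and lower. Of 18793 genes tested, 8887 (47.3%) differed between the years at a Benjamini-Hochberg adjusted p under 0.05 in edgeR's quasi-likelihood test, 4444 (23.6%) higher and 4443 (23.6%) lower in CF 2024 leaves. The changes were mostly small. The median size of the log2 fold change (2024 over 2023 throughout) was 0.69 among called genes. Of the 2399 called genes (12.8%) with a size of at least 1, 1193 genes (6.35%) were higher and 1206 (6.42%) lower. At an unadjusted p under 0.05 there were 10096 genes (53.7%). For 9245 genes (49.2%) the libraries of the years did not overlap, and among called genes the share was 91.5%. The genes named below for a large change or small p were picked among called genes without overlap. Scaled by library totals, 12597 genes were called, with 1802 higher and 10795 lower, so the even split does not hold on that scale.

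On the TMM scale the direction of the difference followed the level of the gene. When the tested genes were split into 5 bins of equal size by mean CPM, which is not corrected for gene length, 47.4% of the top bin (41.5 CPM and above) was called higher and 17.7% lower in CF 2024 leaves, with a median log2 fold change of 0.2. In the next bin the shares were 25.3% higher and 27.6% lower. The lowest bin, at 0.568 to 3.23 CPM, had 12.1% called higher and 18.5% lower, with a median of -0.16. On this scale abundant transcripts were thus more often higher in 2024, and transcripts of low and middle level were more often lower. The bins were not counted with library totals. There the median of all genes was -0.49, with 1802 called higher and 10795 lower, so the top bin need not lie above 0.

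**Figure D1:**
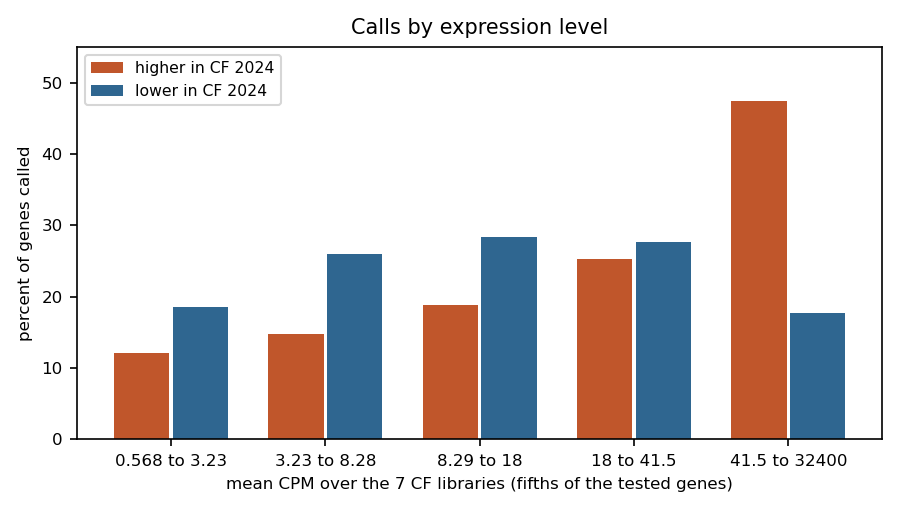
Share of tested genes called higher and lower in CF 2024 leaves than in CF 2023 leaves on the TMM scale (percent, y axis), in 5 equal bins of mean level over the 7 CF libraries (x axis, lowest to highest). The share called higher climbs to 47.4% in the top bin, where 17.7% are called lower.

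The genes with the largest rises or the smallest p had different roles. The gene Os08g0187900, described as a ubiquitin-conjugating enzyme, stood at 81, 82.4 and 83 CPM in the CF 2024 leaves, against 6.16, 5.05, 6.92 and 9.08 CPM in the CF 2023 leaves (log2 fold change 3.59 ± 0.13 SE, adjusted p = 2.26e-12). The 3 leaves of 2024 lay within 2 CPM of each other and far above every leaf of 2023. INO1, the enzyme that makes myo-inositol phosphate as the first step towards phytic acid, was at 487, 544 and 459 CPM in 2024 and at 59.8, 79, 68.3 and 72.1 CPM in 2023 (2.83 ± 0.1, adjusted p = 1.17e-12). LEA9, a late embryogenesis abundant protein of the kind that protects cells against water loss, was at 716, 541 and 702 CPM in 2024 and at 68.8, 36.1, 81.9 and 118 CPM in 2023 (3.1 ± 0.4, adjusted p = 0.00189). For both genes every 2024 leaf was above every 2023 leaf, as the rule that named them required. AK-HSDH2, described as an aspartokinase and homoserine dehydrogenase of the pathway to threonine and methionine, averaged 204 ± 28.2 CPM in 2024 and 24.4 ± 14.7 CPM in 2023 (SD, n = 3 and 4, log2 fold change 3.06). HOX24, a homeodomain-leucine zipper factor of stress responses, averaged 6.63 ± 1.65 CPM in 2024 and 0.606 ± 0.21 CPM in 2023 (3.44).

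RNS4, an S-like ribonuclease, had the largest rise among genes with reads in every library, and its leaves differed widely. It was at 52.8, 23.6 and 145 CPM in CF 2024 and at 1.54, 0.693, 0.324 and 0.976 CPM in CF 2023 (log2 fold change 6.36 ± 1.02, adjusted p = 0.00443). The groups did not overlap, but the highest 2024 leaf was several times the lowest. The trypsin inhibitor gene RBBI2-1 was at 4.05, 1.73 and 33.5 CPM in 2024 and at 0.867, 0, 0 and 0.0976 CPM in 2023 (5.71 ± 1.8, adjusted p = 0.049). One leaf of 2024 was far above the other 2, and the call was lost without CF 2023 replicate 1, 2, 3 or 4 or CF 2024 replicate 1 (adjusted p 0.0555 to 0.12). Os03g0280400, described only by a plant-specific domain, had 204 reads over the 3 CF 2024 libraries (2.78, 3.59 and 6.14 CPM) and none in the 4 CF 2023 libraries, which makes it at least 59.2-fold higher when 2023 is set at a floor of 3 reads over the group (adjusted p = 5e-07). It was not silent in 2023, since the GM leaves held it at 23.3 ± 5.9 CPM in 2024 and 4.2 ± 2.37 CPM in 2023.

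Among the genes with the largest falls or the smallest p were APX7 and WSL3. APX7, an ascorbate peroxidase that detoxifies hydrogen peroxide in plastids, was at 8.81, 7.4 and 7.01 CPM in CF 2024, against 68.6, 80.3, 77.9 and 56.6 CPM in CF 2023 (log2 fold change -3.2 ± 0.14, adjusted p = 1.27e-11). WSL3, a component of the plastid-encoded RNA polymerase, was at 3.25, 2.37 and 4.43 CPM in 2024 and at 26.5, 21.9, 23.4 and 19.8 CPM in 2023 (-2.74 ± 0.18, adjusted p = 1.15e-09). No leaf of 2024 came near the 2023 range for either gene, and the rule that named them required ranges without overlap. Os03g0679700, similar to the thiamine synthesis gene thiC, averaged 167 ± 12.2 CPM in 2024 and 558 ± 27.1 CPM in 2023 (-1.74). Os08g0344600, similar to a triose phosphate translocator of non-green plastids, averaged 22.4 ± 2.56 CPM in 2024 and 89.1 ± 2.38 CPM in 2023 (-1.99). Os09g0438700, similar to a small chloroplast chaperonin, averaged 15.4 ± 1.73 CPM in 2024 and 62.1 ± 5.58 CPM in 2023 (-2.0). These 3 genes were picked for small p and ranges that did not overlap, so their tight replicates are no added support. The primary transcript of MIR408, whose microRNA targets copper proteins, was at 0.238, 0.359 and 0.722 CPM in 2024 and at 2.21, 3.37, 3.35 and 10.7 CPM in 2023 (-3.36 ± 0.71, adjusted p = 0.00498), with 1 leaf of 2023 well above the other 3. These are counts of the primary transcript and not of the mature microRNA.

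The clock genes changed in both directions. Of 13 genes in the clock list, all tested, 6 were called higher and 3 lower, against 23.6% and 23.6% of all genes, with a median log2 fold change of 0.16 that is -0.29 with library-total scaling (2 higher and 7 lower). OsCCA1, the morning MYB factor of the central loop, was at 2290, 2540 and 2460 CPM in CF 2024 and at 611, 639, 623 and 700 CPM in CF 2023 (1.92 ± 0.09, adjusted p = 1.57e-11). OsPRR1, the evening pseudo-response regulator that opposes OsCCA1 in the loop, was at 23.5, 18.1 and 21.2 CPM in 2024 and at 40.8, 43.9, 34.5 and 34.8 CPM in 2023 (-0.88 ± 0.11, adjusted p = 4.66e-06). The morning gene was thus higher and the evening gene lower in every 2024 leaf. OsFKF1, an F-box protein with a blue-light sensing LOV domain, was at 11.3, 13.4 and 11.4 CPM in 2024 and at 31.3, 31.5, 30.4 and 33.2 CPM in 2023 (-1.39 ± 0.11, adjusted p = 7.61e-09). OsPRR95, a pseudo-response regulator, was at 958, 915 and 860 CPM in 2024 and at 556, 607, 551 and 596 CPM in 2023 (0.66 ± 0.08, adjusted p = 4.14e-06). OsELF3-2, of the evening complex, averaged 2.75 ± 0.707 CPM in 2024 and 6.53 ± 1.96 CPM in 2023 (-1.24 ± 0.25, adjusted p = 0.000543). In each case the leaves of the years did not overlap.

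Smaller clock differences depended on the scaling. OsPRR37 (log2 fold change 0.44) and OsPRR73 (0.29) were called higher in CF 2024, but took -0.01 and -0.16 with library totals. The F-box genes OsZTL1 (0.62) and OsZTL2 (0.51) were also called higher and lost their calls with library totals, at 0.17 and 0.06. OsGI, the evening gene GIGANTEA, averaged 1700 ± 54.2 CPM in 2024 and 1670 ± 56.4 CPM in 2023 and did not pass the test (0.02 ± 0.09, adjusted p = 0.876). OsELF3-1 (0.04), OsPRR59 (0.16) and OsLUX (-0.47) did not pass either. Sampling covered the same hour of clock time in both years, so no rhythm was measured, and whether these differences are of level or of phase was not tested.

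The flowering list held genes that differed in either direction. Of 17 listed genes 13 were tested, and 4 were called higher and 4 lower, near the 23.6% of all genes each way, with a median log2 fold change of 0.06 that is -0.39 with library-total scaling (3 higher and 8 lower) and -0.02 with no filter on low counts. OsMADS14, a MADS-box factor that is switched on as plants turn to flowering, was at 1.35, 0.288 and 0.825 CPM in CF 2024 and at 14.3, 7.23, 5.73 and 3.51 CPM in CF 2023 (-3.24 ± 0.64, adjusted p = 0.00447). All 2024 leaves were below all 2023 leaves, and the 2023 leaves differed from each other several-fold. Ghd7, the long-day repressor of flowering, was at 2.3, 1.8 and 1.96 CPM in 2024 and at 0.0963, 0.495, 0.648 and 0.683 CPM in 2023 (2.06 ± 0.42, adjusted p = 0.000575). OsCO3, a CONSTANS-like gene that delays flowering in short days, was at 88, 106 and 93.5 CPM in 2024 and at 26, 38, 32.8 and 37.1 CPM in 2023 (1.52 ± 0.11, adjusted p = 2.05e-08). Both were higher in every 2024 leaf.

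Other flowering genes were mixed. OsMADS50, a floral activator, was at 110, 118 and 113 CPM in CF 2024 and at 61.9, 69.1, 63.5 and 64.1 CPM in CF 2023 (log2 fold change 0.81 ± 0.08, adjusted p = 9.28e-08). OsMADS56, a long-day repressor, was called higher at 0.53 and lost the call with library totals (0.07). The florigen gene Hd3a averaged 2.48 ± 0.781 CPM in 2024 and 3.26 ± 0.585 CPM in 2023 and did not pass the test (-0.4, adjusted p = 0.236). DTH8, a subunit of a CCAAT-binding repressor complex, was called lower at -0.71 (adjusted p = 0.0276) and lost the call without CF 2023 replicate 2 (-0.64), CF 2024 replicate 1 (-0.58) or CF 2024 replicate 3 (-0.61), and with the 2024 libraries thinned to the depth of 2023 (-0.67). Ehd3, a flowering promoter, was called lower at -0.4 (adjusted p = 0.0278) and lost the call without CF 2023 replicate 2 (-0.38), CF 2023 replicate 3 (-0.33) or CF 2024 replicate 2 (-0.29), and in DESeq2 (-0.38). Ehd1, with 38 reads over the 7 libraries, OsId1, with 70, OsMADS15, with 1, and Hd1, with none, were too low to test.

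**Figure D2:**
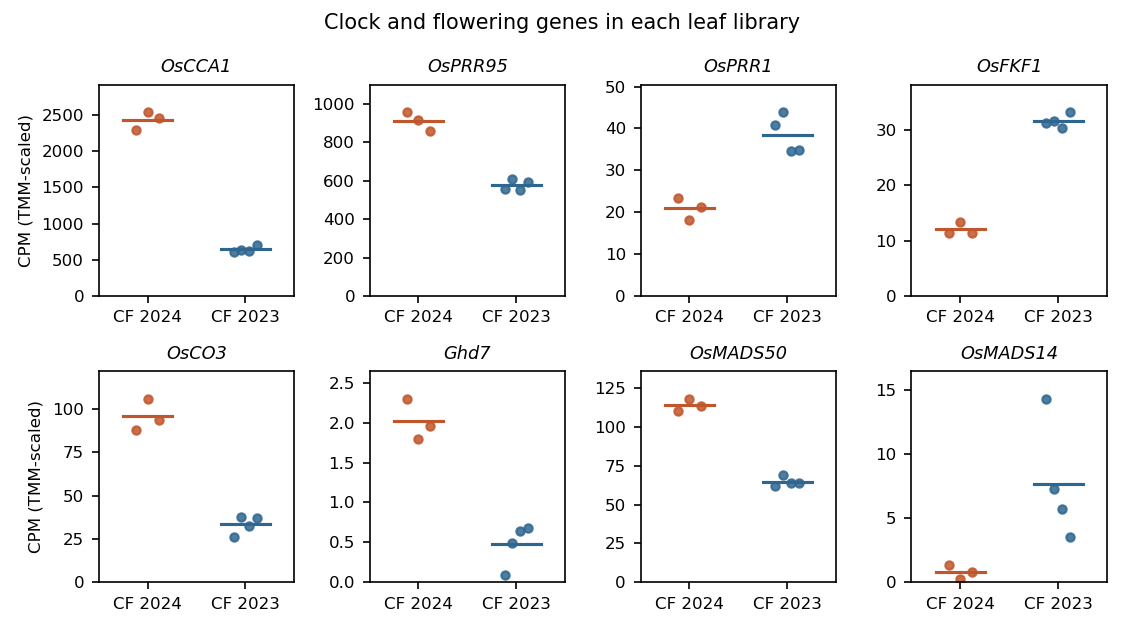
Level of 8 clock and flowering genes in each CF library (TMM-scaled CPM from 0, 1 axis a gene, points are leaves and bars group means), with the 3 leaves of 2024 left of the 4 leaves of 2023. OsCCA1, OsPRR95, OsCO3, Ghd7 and OsMADS50 lie higher and OsPRR1, OsFKF1 and OsMADS14 lower in every 2024 leaf.

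Photosynthetic genes were higher in CF 2024 leaves as groups on the TMM scale, with exceptions in each. Over all genes 23.6% were called each way, and of the top level bin 47.4% were called higher and 17.7% lower. Of 14 genes for Rubisco, its activase and chlorophyll synthesis, all tested, 10 were called higher and 1 lower (median log2 fold change 0.63, 0.19 with library totals). Together they took 7.78 ± 0.139% of the reads in CF 2024 and 4.53 ± 0.649% in CF 2023. OsRCA, the activase that keeps Rubisco working, was the gene with most reads. It was at 53300, 48300 and 48200 CPM in 2024 and at 17600, 17100, 19700 and 22400 CPM in 2023 (1.38 ± 0.12, adjusted p = 3.43e-08), with every 2024 leaf far above every 2023 leaf. The small subunit gene OsRBCS2 averaged 22800 ± 1890 CPM in 2024 and 6880 ± 2220 CPM in 2023 (1.73 ± 0.27, adjusted p = 0.00166). Its relatives OsRBCS4 (0.95), OsRBCS3 (0.56) and OsRBCS5 (0.41) were also called higher, and as near copies they can exchange reads, so the split between them is uncertain. Relative to library totals, OsRBCS5 overlapped between the years (1920 to 2460 CPM in CF 2024, 1910 to 2580 in CF 2023). So did OsRBCS3 (6440 to 7890 and 4400 to 7650), while OsRBCS4 did not (3280 to 3820 and 1700 to 2900).

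The transcription factors of chloroplast development moved the same way. OsGLK2 averaged 294 ± 17.5 CPM in CF 2024 and 186 ± 23 CPM in CF 2023 (log2 fold change 0.66), and OsGLK1 was called higher at 0.97. OsHEMA1, which starts tetrapyrrole synthesis, was higher at 0.7, and OsCAO1, which makes chlorophyll b, at 0.61, though OsCAO1 was not called with library totals (0.16). The exception was OsPORB, the light-dependent reductase of protochlorophyllide, at 537 ± 15.3 CPM in 2024 and 868 ± 154 CPM in 2023 (-0.69 ± 0.11, adjusted p = 9.04e-05). Of 7 genes of chlorophyll breakdown and senescence, 1 was called higher and 1 lower, against 1 and 5 with library totals (median -0.45). OsSGR, the stay-green magnesium dechelatase that starts chlorophyll breakdown, averaged 29.9 ± 4.51 CPM in 2024 and 13.1 ± 3.1 CPM in 2023 (1.19), and OsRCCR1, a later step, averaged 3.4 ± 0.18 CPM in 2024 and 7.19 ± 2.1 CPM in 2023 (-1.08).

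Among 24 genes of light-harvesting and related proteins 19 were tested, and 12 were called higher and 1 lower (median log2 fold change 0.76, 0.31 with library totals and 8 higher against 3 lower). The share of all genes was 23.6% each way. LHCB2.1, an antenna protein of photosystem II, averaged 8500 ± 711 CPM in CF 2024 and 3960 ± 703 CPM in CF 2023 (1.1 ± 0.13, adjusted p = 1.1e-06). OHP1, a one-helix protein needed to assemble photosystems, averaged 169 ± 11 CPM in 2024 and 63 ± 9.76 CPM in 2023 (1.42 ± 0.1, adjusted p = 4.09e-09). CAB1R, an abundant antenna gene, did not pass the test at 15900 ± 775 CPM in 2024 and 14400 ± 1480 CPM in 2023 (0.15, adjusted p = 0.281). Relative to library totals CAB1R was lower in every 2024 leaf, at 12800 to 13900 CPM against 15300 to 17700 in 2023. The share of reads in all 24 genes was 5.82 ± 0.536% in 2024 and 5.62 ± 0.59% in 2023, a difference smaller than the spread between leaves on this library-total scale.

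Of 40 photosystem subunit genes 30 were tested, with 18 called higher and 4 lower (median log2 fold change 0.63), against 23.6% of all genes each way. With library totals the median was 0.18 and the split 10 higher and 10 lower. PSBO, of the oxygen-evolving complex, averaged 5570 ± 310 CPM in CF 2024 and 2490 ± 595 CPM in CF 2023 (1.16 ± 0.16, adjusted p = 6.22e-05). PSB28, a photosystem II assembly factor, averaged 346 ± 8.54 CPM in 2024 and 138 ± 19.7 CPM in 2023 (1.32). The lower genes were related proteins of low level, among them Os02g0578400 of the PsbQ family at 3.69 ± 0.344 CPM in 2024 and 11.8 ± 1.9 CPM in 2023 (-1.68).

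Genes that serve the expression of the plastid genome had calls in both directions. SIG5, a sigma factor that directs the plastid RNA polymerase and responds to light and stress, was at 865, 929 and 819 CPM in CF 2024 and at 167, 201, 186 and 212 CPM in CF 2023 (log2 fold change 2.19 ± 0.09, adjusted p = 7.3e-12). The polymerase component WSL3 was lower, as given above. Of 24 plastid ribosomal protein genes 23 were tested, and 5 were called higher and 11 lower (median -0.46), against 2 and 19 with library totals (-0.91). On the TMM scale 23.6% of all genes were called each way. PRPL18 averaged 5.23 ± 0.698 CPM in 2024 and 13.6 ± 2.45 CPM in 2023 (-1.37), and CRP7 20 ± 5.98 CPM in 2024 and 52.7 ± 6.69 CPM in 2023 (-1.4). Against these, the L27 gene Os01g0924000 averaged 309 ± 18 CPM in 2024 and 183 ± 10.1 CPM in 2023 (0.76) and the L28 gene Os05g0101400 110 ± 8.79 CPM in 2024 and 62.8 ± 8.43 CPM in 2023 (0.81). The directions within the plastid ribosome were therefore mixed, with more members lower.

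Cytosolic ribosomal protein genes were lower or not called. Of 157 genes 140 were tested, and 37 were called lower and none higher, with 127 of the 140 below 0 and a median log2 fold change of -0.34. With library totals 122 were called lower and none higher (median -0.79). The called members fell by 0.33 to 0.95 on the log2 scale, with Os11g0425800, an L13a gene, at 15.9 ± 2.41 CPM in CF 2024 and 30.6 ± 2.25 CPM in CF 2023 (-0.95) and RPS24 at 16.6 ± 3.84 CPM in 2024 and 27.4 ± 3.2 CPM in 2023 (-0.73). The list took 0.346 ± 0.0853% of the reads in 2024 and 0.592 ± 0.0696% in 2023. The number called depended on single leaves, with 65 and 57 called without CF 2024 replicate 1 and CF 2023 replicate 2, and 21, 24 and 24 called without CF 2024 replicate 2, CF 2024 replicate 3 and CF 2023 replicate 3. On the TMM scale the share called lower, 37 of 140, is close to the 23.6% of all genes called lower, while no member was called higher, against 23.6% of all genes.

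**Figure D3:**
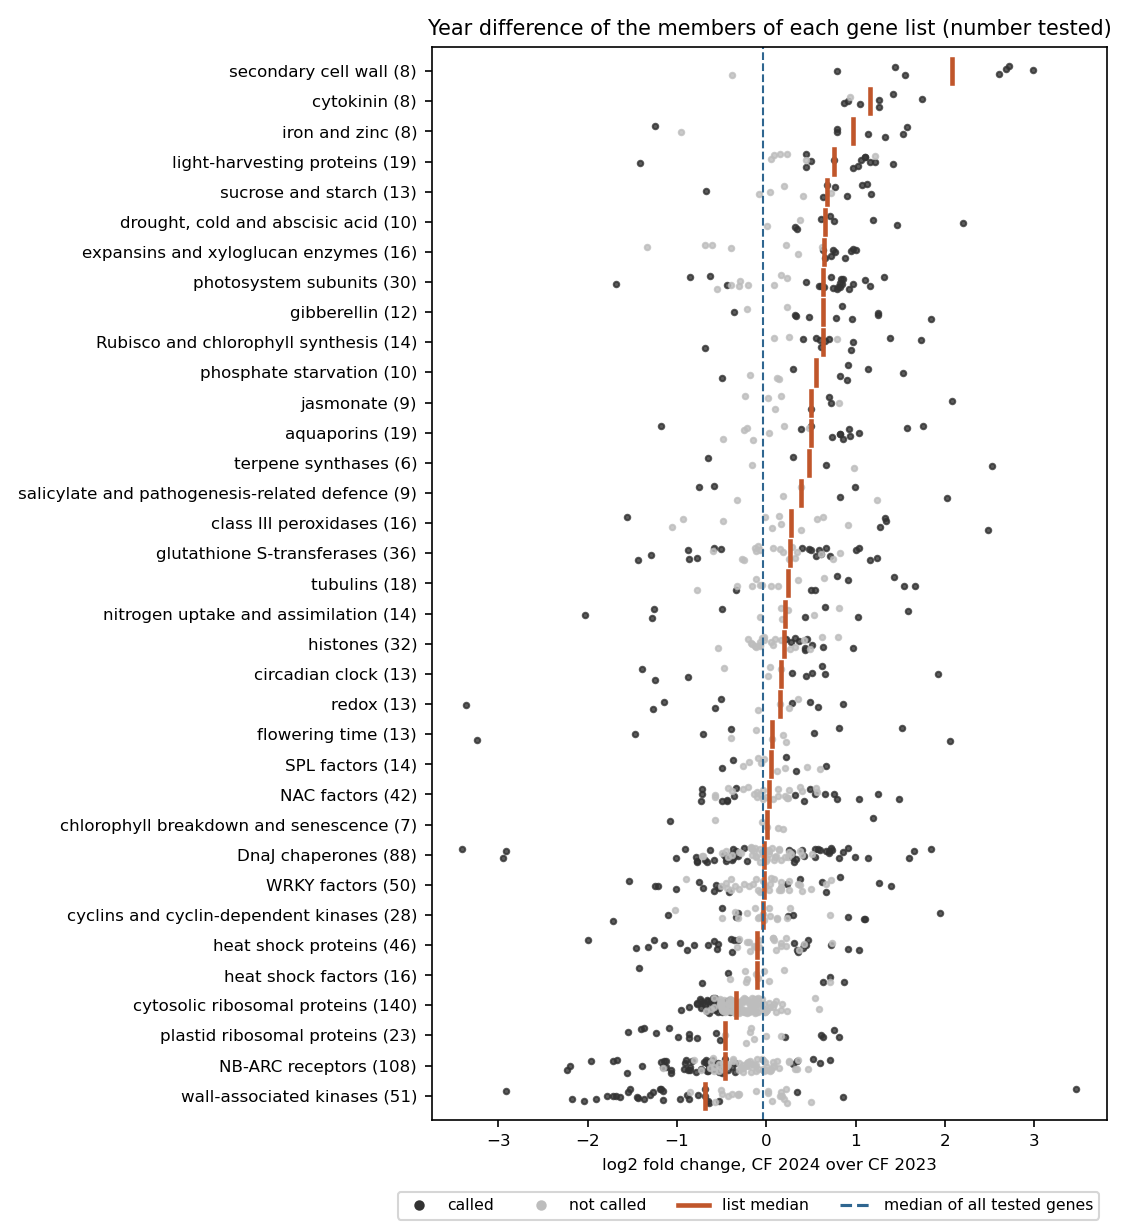
Log2 fold change (CF 2024 over CF 2023, x axis) of every tested member of the lists with at least 5 tested members, 1 list a row, with called genes dark, other genes grey, the list median as a bar and the median of all tested genes (-0.04) dashed. Medians run from 2.08 in the secondary wall list to -0.68 in wall-associated kinases, and most lists hold genes on both sides of 0.

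Genes of the secondary cell wall, the cellulose and lignin layer laid down in vessels and fibres after cells stop growing, were higher together. Of 8 genes, all tested, 7 were called higher and none lower, with a median log2 fold change of 2.08 (1.63 with library totals). For all genes the shares were 23.6% each way and the median -0.04. OsCesA4, 1 of the 3 cellulose synthases of secondary walls, was at 14.5, 28.2 and 22.9 CPM in CF 2024 and at 4.04, 2.77, 5.19 and 2.44 CPM in CF 2023 (2.61 ± 0.28, adjusted p = 2.38e-05). The other synthases were called higher too, with OsCesA9 at 13 ± 5.39 CPM in 2024 and 2.04 ± 1.18 CPM in 2023 (2.68) and OsCesA7 at 5.02 ± 2.87 CPM in 2024 and 0.626 ± 0.722 CPM in 2023 (2.99). BC1, a COBRA-like protein that orders cellulose fibrils, was at 3.97, 8.19 and 6.34 CPM in 2024 and at 1.06, 0.594, 1.62 and 0.488 CPM in 2023 (2.72 ± 0.34, adjusted p = 4.93e-06). For the named members the years did not overlap, and library 1 was the lowest of the 2024 leaves for both OsCesA4 and BC1.

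Regulators and lignin genes of the wall followed with smaller changes. OsMYB61, a MYB factor that activates cellulose synthase genes, was at 3.02, 4.03 and 3.97 CPM in CF 2024 and at 1.73, 1.19, 1.3 and 0.781 CPM in CF 2023 (log2 fold change 1.55 ± 0.29, adjusted p = 0.000259). OsCAD2, the cinnamyl alcohol dehydrogenase of lignin synthesis, was at 24.8, 34.4 and 27.2 CPM in 2024 and at 13.7, 8.51, 10.6 and 9.47 CPM in 2023 (1.44 ± 0.15, adjusted p = 7.26e-07). OsSWN1, a NAC master switch of wall thickening, was called higher at 0.79, and its relative OsSWN2 did not pass the test (-0.38, adjusted p = 0.271). The list as a whole took 0.0072 ± 0.00182% of the reads in 2024 and 0.00288 ± 0.000639% in 2023.

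Genes of growing walls, the cytoskeleton and cell division had more higher than lower calls on the TMM scale, and with library totals more lower than higher calls in all but the expansin list. Of 83 expansin and xyloglucan enzyme genes only 16 had enough reads to be tested, and 9 of these were called higher and none lower (median log2 fold change 0.65), against 3 and 1 with library totals (0.2). EXPA10, an expansin that loosens walls, averaged 17.7 ± 1.26 CPM in CF 2024 and 10.4 ± 1.02 CPM in CF 2023 (0.77, and 0.32 and not called with library totals). Of 18 tested tubulin genes 7 were called higher and 1 lower (median 0.24), against 4 and 9 with library totals (-0.21), led by Os11g0549900, an alpha tubulin gene, at 149 ± 9.51 CPM in 2024 and 51.3 ± 6.25 CPM in 2023 (1.54). Of 32 tested histone genes 10 were called higher and none lower (median 0.2), against 1 and 13 with library totals (-0.26). Of 28 tested cyclin and cyclin-dependent kinase genes 6 were higher and 5 lower (median -0.04), near the 23.6% of all genes in each direction, and 4 and 17 with library totals (-0.49). Without CF 2023 replicate 3 the cyclin list had 6 higher and 7 lower. CYCD5;3, a D-type cyclin, averaged 48.2 ± 0.201 CPM in 2024 and 22.6 ± 2.58 CPM in 2023 (1.09). SPL factors, which mark the age of the shoot as miR156 declines, were mixed, with 3 of 14 tested called higher and 2 lower (median 0.05), against 1 and 7 with library totals (-0.4), and 3 called in all without CF 2024 replicate 1.

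In the nitrogen list 2 called genes rose and 3 fell by at least 1 on the log2 scale. Of 22 listed genes 14 were tested, with 4 called higher and 4 lower, near the 23.6% of all genes in each direction (median log2 fold change 0.21), and 3 and 8 with library totals (-0.25). OsNiR, the nitrite reductase that turns nitrite into ammonium in plastids, was at 16, 15.6 and 14.2 CPM in CF 2024 and at 54.2, 63.8, 70.8 and 59.6 CPM in CF 2023 (-2.03 ± 0.11, adjusted p = 6.54e-11). OsGS1;2, a cytosolic glutamine synthetase that fixes ammonium, was at 83.3, 66.1 and 83.7 CPM in 2024 and at 20.9, 22.8, 24.7 and 34.5 CPM in 2023 (1.59 ± 0.16, adjusted p = 9.68e-06). OsAMT1;1, an ammonium transporter, was at 198, 211 and 188 CPM in 2024 and at 91.9, 95.8, 110 and 92.4 CPM in 2023 (1.03 ± 0.08, adjusted p = 1.52e-08). No leaf crossed between the years for any of these 3 genes, as for 91.5% of all called genes.

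The remaining nitrogen calls were smaller rises and falls of varied size. Among the falls, ASNASE2 and OsNRT2.3 changed more than OsAMT1;1. The plastid glutamine synthetase OsGS2 averaged 3590 ± 300 CPM in CF 2024 and 2270 ± 215 CPM in CF 2023 (log2 fold change 0.66). The nitrate reductase OsNIA1, before OsNiR in the pathway, averaged 366 ± 56.8 CPM in 2024 and 272 ± 9.63 CPM in 2023 (0.43). It went the other way from OsNiR on the TMM scale only. With library totals the 3 genes called higher were OsAMT1;1, OsGS1;2 and OsGS2. ASNASE2, an asparaginase that releases ammonium from asparagine, averaged 446 ± 124 CPM in 2024 and 1080 ± 211 CPM in 2023 (-1.28), and the asparagine synthetase OsASN2 75 ± 1.57 CPM in 2024 and 106 ± 6.09 CPM in 2023 (-0.5). The nitrate transporter OsNRT2.3 averaged 2.08 ± 0.888 CPM in 2024 and 4.98 ± 1.68 CPM in 2023 (-1.26). The 8 genes not tested included OsNRT2.1, OsNRT2.2 and OsAMT1;2, which had no read in any CF library. The fertilizer dose was the same in both years, and leaf nitrogen was not measured in these files.

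**Figure D4:**
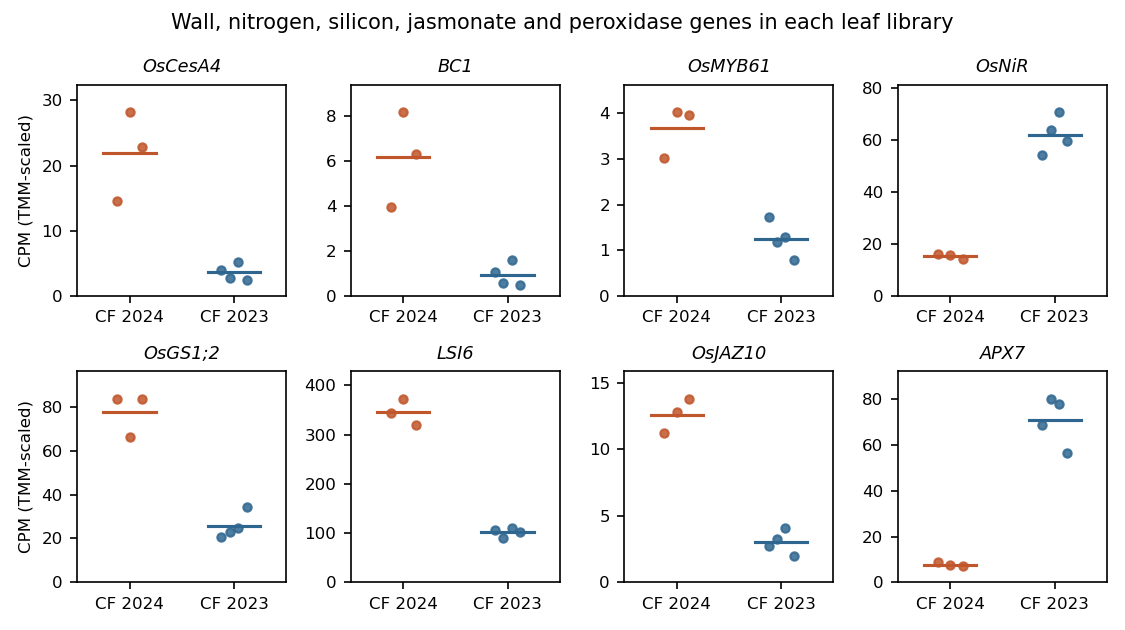
Level of 3 secondary wall genes, OsNiR, OsGS1;2, LSI6, OsJAZ10 and APX7 in each CF library (TMM-scaled CPM from 0, 1 axis a gene, points are leaves and bars group means), with 2024 left of 2023. OsNiR and APX7 lie lower and the other 6 genes higher in every 2024 leaf.

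Phosphate, iron and sugar lists had more higher than lower calls on the TMM scale, against 23.6% each way over all genes, and the phosphate list did not with library totals. Of its 10 tested genes 6 were called higher and 1 lower (median log2 fold change 0.56), against 4 and 4 with library totals (0.11). OsPHO1;2, a phosphate exporter, averaged 38.6 ± 1.9 CPM in CF 2024 and 17.5 ± 1.45 CPM in CF 2023 (1.14), and OsSPX2, a phosphate sensor that holds back starvation genes, 50.6 ± 6.87 CPM in 2024 and 27.1 ± 1.61 CPM in 2023 (0.9). The exception was the phosphate transporter OsPT8 at 33.1 ± 3.81 CPM in 2024 and 46.3 ± 5.49 CPM in 2023 (-0.49). Of 8 tested iron and zinc genes 6 were higher and 1 lower (median 0.97, 0.52 with library totals). The ferritins OsFER1, at 772 ± 166 CPM in 2024 and 267 ± 63.4 CPM in 2023 (1.53), and OsFER2, at 864 ± 225 CPM in 2024 and 289 ± 67.9 CPM in 2023 (1.58), store iron in plastids. They are near copies that can exchange reads, so their separate values are uncertain.

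Of 13 tested sucrose and starch genes 7 were called higher and 1 lower (median log2 fold change 0.68, 0.23 with library totals), against 23.6% of all genes each way. In the top level bin (41.5 CPM and above) 47.4% of genes were called higher and 17.7% lower. OsSPS1, which makes sucrose phosphate for export, averaged 774 ± 89.3 CPM in CF 2024 and 345 ± 35.7 CPM in CF 2023 (1.17), and OsSUT1, which loads sucrose into the phloem, 126 ± 13.1 CPM in 2024 and 60.1 ± 4.76 CPM in 2023 (1.07). OsGBSSII, the granule-bound starch synthase of leaves, averaged 5010 ± 388 CPM in 2024 and 2280 ± 136 CPM in 2023 (1.13). The lower gene was the sucrose synthase OsSUS2 (-0.67). Of 19 tested aquaporin genes 11 were higher and 1 lower (median 0.5, 0.05 with library totals). LSI6, the silicon channel of leaves that unloads silicon from the xylem, was at 343, 373 and 320 CPM in 2024 and at 107, 89.3, 111 and 102 CPM in 2023 (1.75 ± 0.09, adjusted p = 4.17e-11), and the water channel PIP2;2 averaged 438 ± 42.7 CPM in 2024 and 146 ± 20 CPM in 2023 (1.58). Silicate fertilizer was given at the same dose in both years, and the groups did not overlap for LSI6.

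Hormone genes were mainly higher on the TMM scale, where 23.6% of all genes were called each way. Among 8 tested cytokinin genes 7 were called higher and none lower, with a median log2 fold change of 1.16 (0.71 with library totals). The type-A response regulators, which cytokinin induces and which damp its signal, made up 6 of the 7. OsRR2 was at 110, 126 and 122 CPM in CF 2024 and at 42.9, 51.1, 46.9 and 57.9 CPM in CF 2023 (1.26 ± 0.09, adjusted p = 5.17e-09), and OsRR1 averaged 24.1 ± 5.7 CPM in 2024 and 9.01 ± 0.175 CPM in 2023 (1.42). OsCKX4, which degrades cytokinin and is itself induced by it, was at 92.2, 110 and 98.7 CPM in 2024 and at 38.8, 40.2, 39.9 and 49.1 CPM in 2023 (1.26). OsRR9 (0.87) and OsRR10 (0.92) are near copies, so their reads may be shared. Each of the named regulators and OsCKX4 was higher in every 2024 leaf.

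Gibberellin genes were higher at several steps on the TMM scale, where 23.6% of all genes were called each way. Of 12 tested genes 9 were called higher and 1 lower (median log2 fold change 0.63, 0.18 with library totals and 5 against 2), and 6 were called in all when the spread was estimated from all 14 libraries. The synthesis genes OsKAO, at 8.43 ± 0.424 CPM in CF 2024 and 3.56 ± 1.2 CPM in CF 2023 (1.25), OsGA3ox2 (1.25) and OsGA20ox2 (0.96) were higher. The inactivating enzyme OsGA2ox4 was also higher, at 13.7 ± 5.9 CPM in 2024 and 3.8 ± 0.699 CPM in 2023 (1.84 ± 0.27, adjusted p = 0.000121). SLR1, the DELLA repressor that gibberellin removes, averaged 178 ± 5.19 CPM in 2024 and 99.3 ± 8.7 CPM in 2023 (0.85). The lower member was the synthesis gene OsKS1 (-0.36), OsGA20ox1 (-0.21) was among the 2 genes that did not pass, and hormone levels were not measured.

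Of 10 tested genes of drought, cold and abscisic acid 8 were called higher and none lower (median log2 fold change 0.66, 0.21 with library totals), against 23.6% of all genes each way. OsNCED3, the rate-limiting dioxygenase of abscisic acid synthesis, averaged 6.23 ± 1.71 CPM in CF 2024 and 2.24 ± 0.548 CPM in CF 2023 (1.46), and SNAC1, a NAC factor of drought tolerance, 115 ± 21 CPM in 2024 and 50.5 ± 6.54 CPM in 2023 (1.19). Among 9 tested jasmonate genes 4 were higher and none lower (median 0.5), against 3 and 4 with library totals (0.04) and 23.6% of all genes each way on the TMM scale. OsJAZ10, a repressor that jasmonate induces, was at 11.2, 12.8 and 13.8 CPM in 2024 and at 2.7, 3.27, 4.11 and 1.95 CPM in 2023 (2.08 ± 0.2, adjusted p = 1.08e-07), with no overlap. The salicylate and pathogenesis list was mixed, with 3 of 9 tested genes higher and 2 lower (median 0.39), against 2 and 3 with library totals (-0.06). OsPAL6, a phenylalanine ammonia-lyase, was at 367, 304 and 406 CPM in 2024 and at 100, 74, 103 and 77.1 CPM in 2023 (2.02 ± 0.13, adjusted p = 1.03e-07), while OsWRKY45, an activator of salicylate defence, averaged 62.3 ± 8.11 CPM in 2024 and 93.3 ± 7.39 CPM in 2023 (-0.58).

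The receptor families of immunity and wall sensing had more lower than higher calls, against 23.6% each way over all genes. Of 222 genes with an NB-ARC domain, the nucleotide-binding core of intracellular immune receptors, 108 were tested, and 45 were called lower, 5 higher and 58 not called (median log2 fold change -0.46, -0.91 with library totals). Os11g0605100 averaged 3.55 ± 0.616 CPM in CF 2024 and 14 ± 1.27 CPM in CF 2023 (-1.96), and Os12g0516300 averaged 35 ± 3.4 CPM in 2024 and 64.8 ± 3.88 CPM in 2023 (-0.88). Of 106 wall-associated kinase genes, whose products span from the wall into the cell, 51 were tested, with 28 lower and 3 higher (median -0.68, -1.13 with library totals). WAK32 averaged 14.2 ± 1.1 CPM in 2024 and 40.6 ± 8.86 CPM in 2023 (-1.52). The exception was WAK21, at 3.02, 3.74 and 5.05 CPM in 2024 and at 0.289, 0.198, 0.54 and 0.39 CPM in 2023 (3.47 ± 0.37, adjusted p = 4.3e-07). Together the NB-ARC genes took 0.0996 ± 0.000514% of the reads in 2024 and 0.17 ± 0.0176% in 2023. Members of both families lie in clusters of similar genes, so reads may be split between them.

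Other defence families had calls in both directions on the TMM scale. Of 50 tested WRKY factors 7 were called higher and 10 lower (median log2 fold change -0.03), and of 42 tested NAC factors 10 were higher and 8 lower (median 0.03). Both are near or below the 23.6% of all genes in each direction. With library totals there were 3 higher and 25 lower WRKY factors (-0.48) and 3 higher and 21 lower NAC factors (-0.42). Glutathione S-transferases had 12 higher and 7 lower of 36 tested (median 0.27), against 4 and 15 with library totals (-0.18), with GSTU23 at 424 ± 5.11 CPM in CF 2024 and 179 ± 8.41 CPM in CF 2023 (1.24). Class III peroxidases had 4 higher and 1 lower of 16 tested (median 0.28), against 4 and 5 with library totals (-0.17). Of 6 tested terpene synthases 3 were higher and 1 lower (median 0.48), and without CF 2024 replicate 3 only 2 were called in all. Of 3 tested phytoalexin genes the diterpene synthase OsCPS2 was lower (-0.35), and the median of the 3 was -0.32.

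Redox and chaperone genes had calls in both directions on the TMM scale. Of 13 listed redox genes, all tested, 4 were called higher and 5 lower (median log2 fold change 0.15), against 1 and 7 with library totals (-0.3). The largest fall in this list, -3.36, was that of the MIR408 primary transcript given above. OsCATA, a catalase, averaged 98.7 ± 9.04 CPM in CF 2024 and 238 ± 30.8 CPM in CF 2023 (-1.27), and OsFSD1, a plastid iron superoxide dismutase, 22.5 ± 5.76 CPM in 2024 and 49.6 ± 4.86 CPM in 2023 (-1.14). The thylakoid ascorbate peroxidase OsAPX8 was higher, at 979 ± 83.6 CPM in 2024 and 540 ± 119 CPM in 2023 (0.86), in contrast to its relative APX7. APX7 is not a member of the redox list. Of 46 tested heat shock proteins 10 were higher and 16 lower (median -0.1), of 88 DnaJ proteins 24 higher and 24 lower (median -0.02), and of 16 heat shock factors 3 higher and 3 lower (median -0.1). Over all genes 23.6% were called in each direction. With library totals the lower calls prevailed, with 2 higher and 29 lower heat shock proteins, 12 and 54 DnaJ proteins and 1 and 11 heat shock factors. HSP17.9A, a small heat shock protein, averaged 3.06 ± 0.392 CPM in 2024 and 12.2 ± 0.52 CPM in 2023 (-2.0), and the HSP90 gene Os06g0716700 averaged 114 ± 2.78 CPM in 2024 and 223 ± 31.6 CPM in 2023 (-0.96). HSP71.1, of the HSP70 family, went the other way at 958 ± 79.1 CPM in 2024 and 465 ± 33.5 CPM in 2023 (1.04). The only tested member of the 39 seed storage genes, GLUA2, did not pass the test (-0.44, adjusted p = 0.0995), although it was called lower without CF 2023 replicate 1 (-0.57) and with library totals (-0.89). Relative to library totals these 39 genes summed to 3.09 to 4.37 CPM in 2024 and 5.07 to 8.58 CPM in 2023, and 35 and 36 of them had no read.

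The same year comparison in the green manure leaves, which share no library with the CF leaves but share the years, gave similar directions. In GM leaves the vetch seed dose also changed, from 30 kg/ha in 2023 to 60 kg/ha in 2024. In GM leaves 6038 of 18935 genes (31.9%) were called, 3008 higher (15.9%) and 3030 lower (16%) in 2024. Of 8749 genes called in CF and tested in GM, 8435 (96.4%) had the same sign in GM. The genes called the same way in both numbered 5005, which is 57.2% of the CF calls and 84.3% of the 5935 GM calls tested in CF, and 5 were called in opposite ways. Across 18403 genes the log2 fold changes of CF and GM had a Pearson r of 0.859, as a description of genes that are not independent. OsCCA1 (1.92 in CF and 2.05 in GM), OsNiR (-2.03 and -1.98), OsCesA4 (2.61 and 2.7) and APX7 (-3.2 and -2.64) were called in both. OsMADS14 was also called lower in both (-3.24 in CF and -1.94 in GM, adjusted p = 0.049 in GM).

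**Figure D5:**
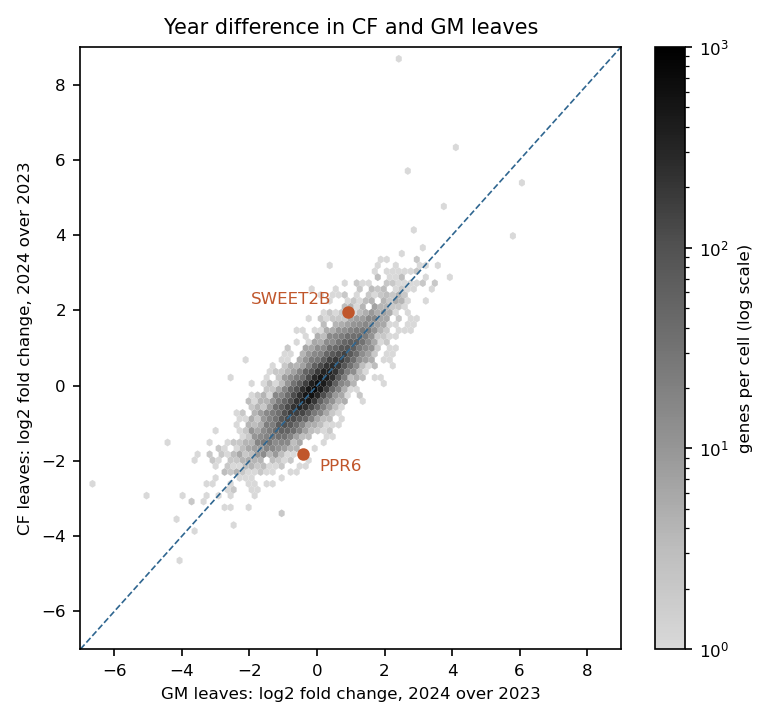
Log2 fold change (2024 over 2023) of 18403 genes in CF leaves (y axis) against GM leaves (x axis), with darker cells for more genes, the dashed line of equal values, and the genes PPR6 and SWEET2B marked. Most genes lie along the diagonal (r = 0.859), and the marked genes have larger year differences in CF leaves.

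The difference between the CF and GM year effects was tested gene by gene in all 14 libraries, and 2 of 19805 genes (0.0101%) were called by edgeR, with 1252 (6.32%) at an unadjusted p under 0.05 and 17 called by DESeq2. The GM year effect includes the change of vetch dose, and the 2 cannot be told apart. SWEET2B, of a family of sugar transporters, was at 185, 249 and 190 CPM in CF 2024 and at 50.6, 56, 49.6 and 57 CPM in CF 2023 (log2 fold change 1.96), and averaged 106 ± 9.47 CPM in GM 2024 and 56.2 ± 4.49 CPM in GM 2023 (0.92), so the GM effect minus the CF effect was -1.03 ± 0.16 (adjusted p = 0.0254). PPR6, by its name a pentatricopeptide repeat protein, was at 11.7, 7.4 and 10.5 CPM in CF 2024 and at 36.3, 33.5, 35 and 34.6 CPM in CF 2023 (-1.82), and averaged 10.8 ± 2.09 CPM in GM 2024 and 14.4 ± 1.16 CPM in GM 2023 (-0.41, adjusted p = 0.0694), a difference of 1.43 ± 0.21 (adjusted p = 0.0208). For SWEET2B the CF and GM leaves of 2023 were alike in range, and the CF leaves of 2024 stood highest. For PPR6 the CF leaves of 2023 stood apart from the other 3 groups. NRT2.4, a nitrate transporter, was next in order and not called (adjusted p = 0.0752), with 87.6 ± 14.6 CPM in CF 2024 and 92.5 ± 14.6 CPM in CF 2023 (-0.08) and a GM log2 fold change of -1.24. Neither SWEET2B nor PPR6 belonged to a list above, and the number of called differences ranged from 0 to 13 when 1 library was left out, with 0 without CF 2024 replicate 2, CF 2023 replicate 1, 2 or 3, GM 2024 replicate 3 or GM 2023 replicate 4, and 13 without GM 2024 replicate 1.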

How the data were processed

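Polyadenylated RNA of single leaves was sequenced with a directional kit, per the labels' protocols. The deposited values are whole-number counts of uniquely assigned exon reads per gene, in 1 table a year, per the file headers. The submitters' processing notes name the rice build IRGSP 1.0. Neither the aligner, the counter nor its strand setting is given in the sources used here, so overlapping and antisense genes are uncertain. The tables, of 37727 genes each, were joined by gene ID. Another 2 columns of 2024, which no sample label names, were not used.

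Counts were tested with edgeR 4.0.16 (R 4.3.3) by quasi-likelihood F-tests with robust dispersions, TMM scaling, its expression filter (minimum count 10, minimum total 15) and Benjamini-Hochberg adjustment over all tested genes, at 0.05. SEs are the log2 fold change over the square root of F. The common biological coefficient of variation was 0.111. The 18934 genes not tested held few reads, since tested genes took at least 99.73% of each CF library. Members of a group differed by more than sampling noise (chi-square per degree of freedom 7.49 to 8.99 in CF 2024 and 3.31 to 13.7 in CF 2023). Alternatives were DESeq2 1.42.0 and other scalings, filters, depths and left-out leaves. On simulated counts of 18598 genes, 88% of 100 genes changed by 1 and 99% of 100 genes changed by 2 on the log2 scale were recovered, and 18 unchanged genes were called. Changes up and down were equal in number there, and spreads came from the same fit. The simulation therefore does not measure recovery where 47.3% of genes are called, nor the choice of scaling.

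The groups compared, the 38 gene lists (17 by locus, 21 by searching names and descriptions) and the named-gene rule were chosen with earlier results of these data known, and the searches were trimmed of non-members after descriptions and values were seen. Lists are described by counts and medians, without a test. Named genes are, by rule, the 12 largest non-overlapping called rises and falls above 2 CPM, the 6 smallest p each way, up to 4 called members a list (all for clock and flowering), genes at 0 reads in 1 year and the 6 smallest interaction p; other list members were named after their values were seen. One gene of the flowering list is counted there but not reported here.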

Additional observations from a re-analysis of the deposited data

Results flagged for a closer look

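In the 4 CF 2023 leaves, 13 of the 187 named genes (6.95%) had 1 leaf set apart by a gap that took most of the range of the 4. Such a gap can be small in size, as for OsSUT2 below. For independent normal values chance alone flags about 1 in 20, while many named genes were picked for small p and ranges without overlap. No group of 3 leaves was examined in this way. Replicate 4 was the leaf apart for 7 genes. It was high for AK-HSDH2 (46.3 CPM, the others 14.1 to 19.2), MIR408 (10.7, the others 2.21 to 3.37), OsGLK2 (220, the others 170 to 177), OsCKX4 (49.1, the others 38.8 to 40.2), PSB33 (211, the others 179 to 180) and Os02g0610700, a light-harvesting gene (61.3, the others 48.4 to 50.5). It was low for the NB-ARC gene Os12g0516300 (59, the others 66.4 to 67.3). Replicate 2 was high for the DnaJ gene Os04g0675400 (16.9, the others 11.9 to 12.6) and low for OsASR1 (332, the others 413 to 427) and WRKY69 (6.83, the others 10.3 to 10.5). Replicate 1 was high for RBBI2-1 (0.867, the others 0 to 0.0976) and OsSUT2 (139, the others 131 to 132), and replicate 3 for the histone H4 gene Os09g0553100 (118, the others 99.8 to 102).

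The year effect differed between fertilizers for PPR6, by 1.43 on the log2 scale (GM minus CF), and for SWEET2B, by -1.03, in edgeR's test of the difference across the 14 libraries. In GM leaves the vetch seed dose changed with the year, and its part cannot be told apart. Leaving out 1 library gave 0 to 13 called differences.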

How the results depend on the processing

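The number of genes called between CF 2024 and CF 2023 leaves (8887) stayed within 1.5 times of that value in the other tools, scalings, filters and depths, and was 2399 when a log2 fold change of at least 1 was also required. Leaving out 1 leaf gave 7489 to 8651. Of 187 named genes 184 were called, and 153 of these kept the call and direction in every fit other than that size limit. Library-total scaling ended the call of 18 named genes and turned OsPRR37 (-0.01), OsPRR73 (-0.16), the histone gene Os05g0461400 (-0.02), the SPL gene LCRN1 (-0.12), the NAC gene Os08g0535800 (-0.03), the terpene synthase gene Os03g0348200 (-0.16) and WRKY69 (-0.31). NRT2.4 (-0.08) ranged from -0.19 to 0.05 with 1 leaf left out, turning without CF 2024 replicate 3. The cause was not tested. In GM leaves 10166 genes were called with library totals (1039 higher and 9127 lower), against 6038, and 3854 to 6317 with 1 leaf left out, fewest without GM 2024 replicate 3 (3854) or 2 (3910). The 2 called differences between fertilizers became 17 with DESeq2, 0 with library totals (1020 at an unadjusted p under 0.05), and 0 to 13 with 1 leaf left out. Deviations from the group means of same-numbered CF leaves had correlations of -0.089, -0.007 and -0.003, against -0.086 to 0.084 for differently numbered leaves. With 3 such pairs and so few leaves a group, these values cannot exclude a pairing. With a replicate block 8699 genes were called in CF, 6359 in GM and 2 differences, the cytosolic ribosomal protein calls were 65 lower and 2 higher, and RBBI2-1 and TPS30 lost their calls. Thinning the CF 2024 leaves to the depth of 2023 left 8158 calls.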
